A study of Mus musculus with 6 samples.

Results

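The genes described here make, load and regulate the major histocompatibility complex (MHC) of the mouse, whose symbols start with H2-. They were taken by name from a table of expected counts for 54146 genes: every protein-coding gene with an H2- symbol, together with B2m, Tap1, Tap2, Tapbp, Psmb8, Psmb9, Psmb10, Psme1, Psme2, Cd74, Ciita and Nlrc5. Of 46 genes with such a name, 35 had at least 10 counts summed over the 6 libraries and were kept, 23 of them with an H2- symbol. The 11 left out were H2-M1, with 8 counts, and 10 genes at 0 in every library. On the GRCm38 build, 28 of the 35 lay on chromosome 17, at chr17:33915899-37483552, and 7 on other chromosomes. After the filter on low counts, 31 of the 35 were among 14386 genes tested. H2-Eb2, H2-M10.5, H2-M2 and H2-Oa were not tested.

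Bulk RNA was sequenced from mouse kidney after removal of the other kidney at 6 weeks of age, followed by a diet with 4% salt, which all groups received. WT mice, for which the labels name no transgene, were set beside mice labelled G0APOL1 and G2APOL1, with 2 libraries in each group. APOL1 is a human gene that mice lack, G0 is its reference form and G2 is one of its kidney risk variants. The series describes the transgenes as inducible and cell-specific and gives both transgenic genotypes the prefix EC, without spelling out the driver, the inducing agent, the strain, the sex or the age at sampling. The labels do not say whether the replicates are separate animals, and p-values measure only the spread between these libraries.

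MHC class I molecules sit on nearly every nucleated cell and show peptides from the cell's own proteins to CD8+ T cells. Their heavy chain pairs with beta-2 microglobulin (B2m) and is loaded in the endoplasmic reticulum with peptides that the proteasome cuts and the TAP transporter carries in. MHC class II molecules sit mainly on dendritic cells, macrophages and B cells and show peptides from ingested proteins to CD4+ T cells. In the kidney, class II is known chiefly from resident macrophages and dendritic cells, and tubular and endothelial cells can also make it when stimulated by interferon-gamma. Nlrc5 is the transactivator of class I genes and Ciita that of class II genes.

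Promoter sequences are shown for 7 of these genes, with matches to motifs that regulators of class I and class II genes are known to use. RefSeq windows (GRCm38.p6), running from 250 bases before to 50 bases after each transcription start, were listed for 29 of the 35 genes. Motifs were searched on both strands, with overlaps allowed: GGGGATT (the first bases of the kappa B element of the class I enhancer), TTTCNNTT (an interferon-stimulated response element core), AGNAAC (X1 box core), TGNTGA (X2 box core) and ATTGG (Y box). The printed stretches end before the first annotated exon on their strand. Their positions are chr17:34000348-34000462 on the minus strand for H2-K1, chr17:35379439-35379616 on the plus strand for H2-Q4, chr17:35424673-35424849 on the plus strand for H2-Q6, and chr17:36042748-36042947 on the minus strand for H2-T22. B2m is at chr2:122147546-122147685 on the plus strand, H2-Aa at chr17:34287824-34288023 on the minus strand and H2-Eb1 at chr17:34305771-34305866 on the plus strand. Capitals mark motif matches on either strand, with the X1 core searched for capitals only in the class II stretches, where H2-Eb1 holds a match and H2-Aa does not. The B2m stretch also holds an X1 core, at -38 from the start, which is left in lower case. AGNAAC matched the windows of 17 of the 29 genes, with the class I genes H2-K1 and H2-T22 among them.
H2-K1: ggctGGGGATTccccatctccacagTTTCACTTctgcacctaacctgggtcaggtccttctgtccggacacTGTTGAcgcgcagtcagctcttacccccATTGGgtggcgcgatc
H2-Q4: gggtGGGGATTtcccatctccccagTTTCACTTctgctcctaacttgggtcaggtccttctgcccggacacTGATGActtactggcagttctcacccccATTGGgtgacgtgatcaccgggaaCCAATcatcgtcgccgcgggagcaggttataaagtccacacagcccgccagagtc
H2-Q6: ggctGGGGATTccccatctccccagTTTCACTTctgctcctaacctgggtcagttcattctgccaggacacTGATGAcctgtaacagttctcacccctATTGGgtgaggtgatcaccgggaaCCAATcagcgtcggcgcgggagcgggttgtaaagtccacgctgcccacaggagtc
H2-T22: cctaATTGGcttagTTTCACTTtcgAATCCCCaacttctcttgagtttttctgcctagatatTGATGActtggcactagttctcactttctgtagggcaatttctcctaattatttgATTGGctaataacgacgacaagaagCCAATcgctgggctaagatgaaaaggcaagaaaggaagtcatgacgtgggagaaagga
B2m: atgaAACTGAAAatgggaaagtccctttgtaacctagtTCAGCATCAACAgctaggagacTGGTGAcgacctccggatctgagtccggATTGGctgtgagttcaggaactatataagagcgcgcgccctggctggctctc
H2-Aa: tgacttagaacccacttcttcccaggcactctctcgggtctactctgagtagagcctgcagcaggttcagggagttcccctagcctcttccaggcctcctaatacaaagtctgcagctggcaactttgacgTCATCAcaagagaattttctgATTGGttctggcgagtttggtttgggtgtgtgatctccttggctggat
H2-Eb1: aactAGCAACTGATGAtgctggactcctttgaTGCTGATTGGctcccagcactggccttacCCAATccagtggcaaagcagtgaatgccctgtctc

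The letters GGGGATT were found in the windows of 7 of the 29 genes, namely H2-K1, H2-D1, H2-Q4, H2-Q6, H2-Q7, H2-T22 and H2-Aa, and in 3.11% of 32817 windows genome-wide. In the stretches of H2-K1, H2-Q4 and H2-Q6 they are followed by an interferon-stimulated core, an X2 core and a Y box in the same order. In H2-T22, a class I gene of the T region, they lie on the opposite strand and come after the interferon-stimulated core. The match in H2-Aa falls outside the stretch printed. In the class II gene H2-Eb1 the X1 core AGCAAC runs directly into an X2 core. An X2 core together with a Y box occurred in the windows of 20 of the 29 genes and in 18.0% of all windows, while TTTCNNTT occurred in 18 of the 29 and in 23.9%. AGNAAC alone matched 48.1% of all windows, TGNTGA 45.6% and ATTGG 37.4%, so a single short match is common. The motifs, and the length of GGGGATT, were chosen after the data were seen, so these shares do not test an enrichment. The printed stretches of H2-K1, H2-Q4 and H2-Q6 are similar in sequence, so their matches are not independent.

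Total counts per library ranged from 8490392 to 11800928. WT replicate 2 stood apart from the other libraries for the genes described here. Its level was the highest of the 6 libraries for 23 of the 31 tested members, while it was highest for 23.6% of all genes tested. The ratio of WT replicate 2 to WT replicate 1 had a median of 2.06 over the tested members and 0.983 over all genes, and it was above 2 for 16 members. Ighm, the heavy chain of immunoglobulin M, was at 245 CPM (counts scaled to library size with TMM factors) in WT replicate 2 and at 2.58 to 6.20 CPM in the other 5 libraries. Each comparison with WT is therefore given with and without that library. Both comparisons with WT use the same WT libraries, so their results are not independent of each other.

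**Figure D1:**
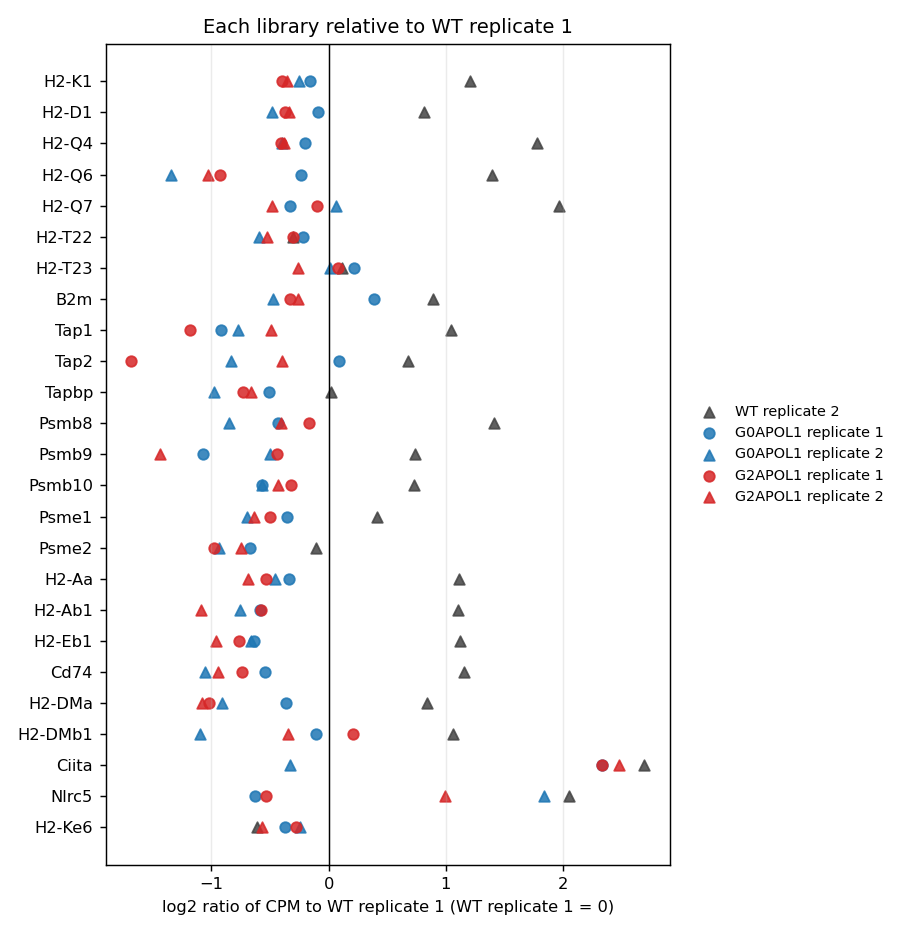
Log2 ratio of the normalised read count (CPM) of each library to that of WT replicate 1, for 25 genes. Grey triangles (WT replicate 2) lie to the right of the line for most genes, and coloured points (transgenic libraries) lie mostly to the left of it, with H2-T23, Ciita and Nlrc5 spread on either side.

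In kidneys of G2APOL1 mice, class II, class I loading and proteasome activator genes were lower than in WT. Of 31 tested members, 10 fell (32.3%) and 0 rose at an adjusted p below 0.05 (edgeR quasi-likelihood test), against 3.62% of all genes lower, 4.57% higher and 8.19% changed in either direction. The genes that fell were H2-Aa, H2-Ab1, H2-Eb1, Cd74 and H2-DMa of class II, Tap1, Tapbp and H2-Q6 of class I, and Psme1 and Psme2. The log2 fold change was below 0 for 30 of the 31 (52.2% of all genes), with a median of -1.10 over the members and -0.04 over all genes. Both G2APOL1 libraries lay below both WT libraries for 23 members, against 28.1% of all genes, and above both for 0 members, against 27.1%. Without WT replicate 2, 4 members fell (H2-Ab1, H2-Eb1, Cd74 and Psme2) and the median was -0.55. The count was 16 without WT replicate 1, 1 without G2APOL1 replicate 1 (H2-Ab1) and 1 without G2APOL1 replicate 2 (Tap2, which is not among the 10). Of the 10 calls, those of Cd74 and H2-Q6 were lost with limma-voom, those of H2-Aa, H2-Ab1, Cd74 and H2-Q6 with a replicate block, and that of Tap1 in a fit of the 4 libraries compared alone.

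G0APOL1 kidneys showed lower levels of many of the same genes. Of the 31 members, 8 fell (25.8%) and 0 rose, against 3.68% of all genes lower, 4.48% higher and 8.17% in either direction. They were Tap1, Tapbp, Psmb8, Psme1, Psme2, H2-Ab1, H2-Eb1 and Cd74, of which 7 also fell in G2APOL1 and Psmb8 did not pass there. The log2 fold change was below 0 for 28 of the 31 (48.8% of all genes), with a median of -0.93 over the members and 0.02 over all genes. Both G0APOL1 libraries lay below both WT libraries for 18 members, against 24.3% of all genes, and above both for 0 members, against 25%. Without WT replicate 2, 2 members fell (Cd74 and Psme2) and the median was -0.39. The count was 16 without WT replicate 1, 1 without G0APOL1 replicate 1 (Tapbp), 0 without G0APOL1 replicate 2, 5 without either G2APOL1 replicate, 4 with limma-voom and 0 in a fit of the 4 libraries compared alone. The calls lost with limma-voom were those of Tap1, Psmb8, H2-Ab1 and Cd74, and those of Psmb8, H2-Ab1 and Cd74 were also lost with a replicate block.

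Between G2APOL1 and G0APOL1, 0 of the 31 members passed with edgeR, DESeq2 or limma-voom, against 0.48% of all genes with edgeR (0.306% lower and 0.174% higher). The log2 fold change was below 0 for 23 of the 31 (51.7% of all genes), both G2APOL1 libraries lay below both G0APOL1 libraries for 6 members (19.5% of all genes) and above both for 4 (19.7%). At an unadjusted p below 0.05 with edgeR, 0 members were lower (3.82% of all genes) and 1 differed in either direction (6.74%). That member was H2-Q10 (adjusted p = 0.620, edgeR), whose levels were 0 and 0.237 CPM in G0APOL1 and 0.686 and 3.74 CPM in G2APOL1. For the 23 members with at least 500 counts over the 6 libraries, the log2 fold change of G2APOL1 against G0APOL1 ranged from -0.61 to 0.47, with standard errors from 0.19 to 0.54. Differences of that size were not distinguishable from the spread between libraries. Against WT, all 4 transgenic libraries lay below both WT libraries for 16 of the 31 members, compared with 17.6% of all genes.

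**Figure D2:**
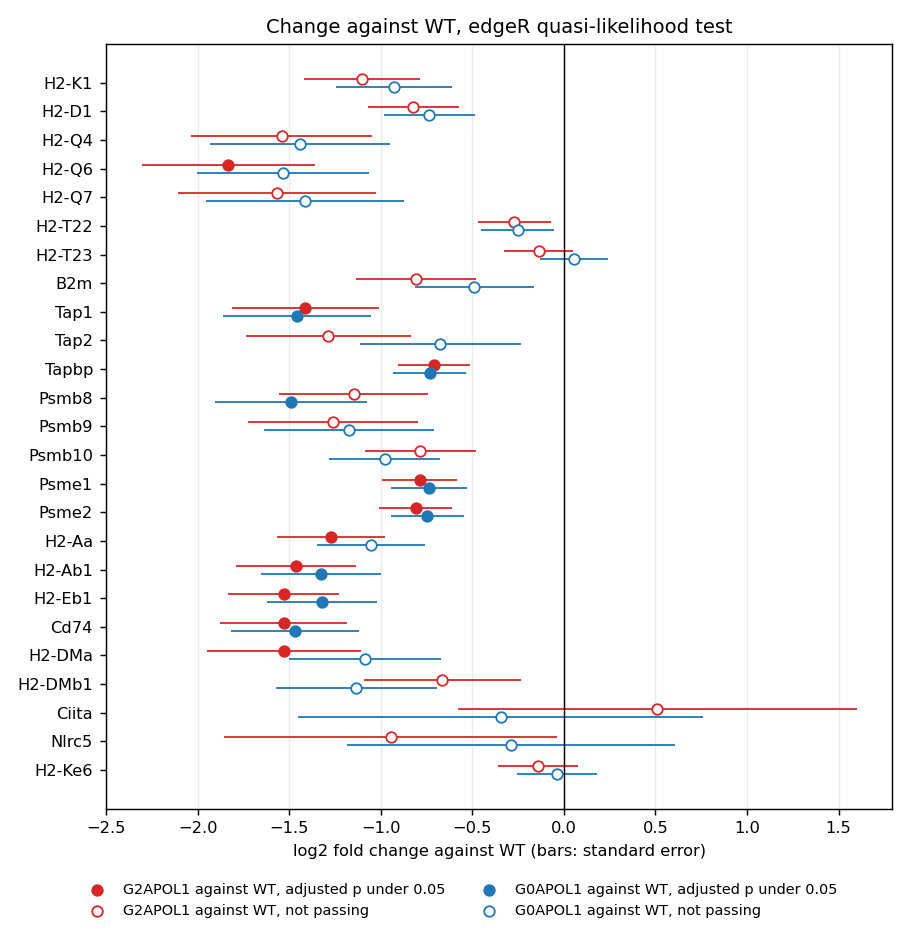
Log2 fold change against WT for 25 genes, with bars for the standard error; red is G2APOL1, blue is G0APOL1, and filled points passed an adjusted p of 0.05. The genes H2-Ab1, H2-Eb1, Cd74, Tap1, Tapbp, Psme1 and Psme2 have filled points in both colours, and H2-T22, H2-T23 and H2-Ke6 lie near 0.

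The class II chains H2-Aa, H2-Ab1 and H2-Eb1 fell in G2APOL1, and H2-Ab1 and H2-Eb1 also fell in G0APOL1. H2-Aa, the alpha chain of the I-A molecule, was at 98.8 and 214 CPM in WT, against 78.3 and 72.0 in G0APOL1 and 68.0 and 61.3 in G2APOL1. H2-Ab1, its beta chain, was at 102 and 220 CPM in WT, against 68.1 and 60.3 in G0APOL1 and 68.5 and 48.1 in G2APOL1. H2-Eb1, the beta chain of the I-E molecule, was at 92.9 and 203 CPM in WT, against 59.8 and 58.5 in G0APOL1 and 54.6 and 47.6 in G2APOL1. For each of the 3 genes WT replicate 2 was the high library, WT replicate 1 the next, and the 4 transgenic libraries lay below both. In G2APOL1 against WT, edgeR gave log2 fold changes of -1.27 ± 0.30 for H2-Aa (SE, adjusted p = 0.0254), -1.46 ± 0.33 for H2-Ab1 (adjusted p = 0.0251) and -1.53 ± 0.30 for H2-Eb1 (adjusted p = 0.0116). G0APOL1 against WT gave -1.05 ± 0.30 for H2-Aa (adjusted p = 0.0527, edgeR, not passing), -1.33 ± 0.33 for H2-Ab1 (adjusted p = 0.0360) and -1.32 ± 0.30 for H2-Eb1 (adjusted p = 0.0219). When WT replicate 2 was left out, the values for H2-Aa, H2-Ab1 and H2-Eb1 were -0.60, -0.79 and -0.85 in G2APOL1 and -0.39, -0.66 and -0.65 in G0APOL1. Of these, H2-Ab1 and H2-Eb1 in G2APOL1 still passed. Each of the class II calls was also lost without a replicate of its own transgenic group: H2-Ab1 in G2APOL1 without replicate 2 alone, the others without either. The call of H2-Aa in G2APOL1 was lost without G0APOL1 replicate 1 too, and without WT replicate 1 H2-Aa also passed in G0APOL1, at -1.5.

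H2-Eb2, another I-E beta gene, had 10 counts in all, 6 of them in WT replicate 2 and 4 in G0APOL1 replicate 1. The alpha chain of I-E is annotated as the polymorphic pseudogene H2-Ea-ps, which was at 0 counts in every library; some mouse MHC haplotypes, such as that of C57BL/6, do not express it. H2-Bl, another polymorphic pseudogene whose expression differs between mouse strains, had 3 to 29 counts per library. The summed class II chains were at 294 and 637 CPM in WT, against 207 and 191 in G0APOL1 and 191 and 157 in G2APOL1. Among themselves the chains kept similar proportions in each library: H2-Aa over H2-Ab1 ranged from 0.654 to 0.863 and H2-Eb1 over H2-Ab1 from 1.05 to 1.31, both as ratios of CPM per kilobase of exon.

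**Figure D3:**
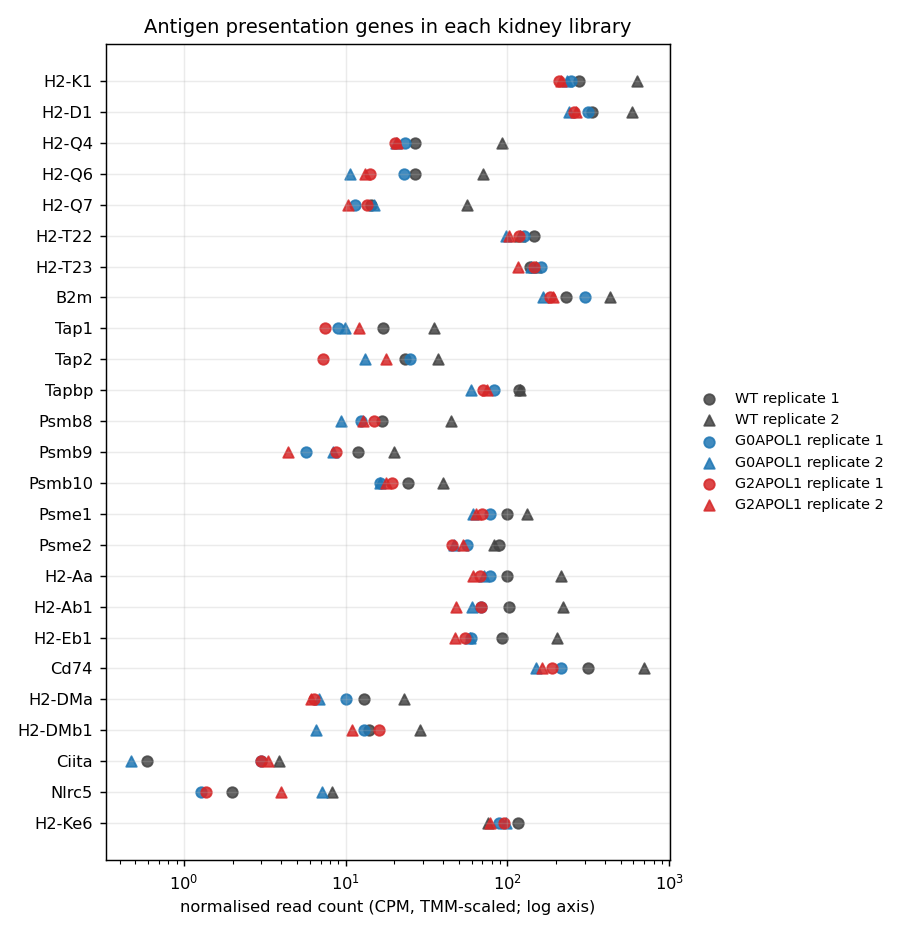
Normalised read count (CPM, log axis) of 25 genes in each of the 6 libraries; circles are replicate 1 and triangles replicate 2, grey WT, blue G0APOL1 and red G2APOL1. For the class II genes H2-Aa, H2-Ab1, H2-Eb1 and Cd74 the 4 coloured points lie left of both grey points.

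Cd74, the invariant chain that holds the class II groove until peptide loading, was the most abundant class II gene. Its level was 313 and 700 CPM in WT, against 216 and 150 in G0APOL1 and 188 and 163 in G2APOL1. Every transgenic library lay below both WT libraries, while G0APOL1 and G2APOL1 overlapped each other. The log2 fold change against WT was -1.53 ± 0.35 in G2APOL1 (adjusted p = 0.0303, edgeR) and -1.47 ± 0.35 in G0APOL1 (adjusted p = 0.0346). Cd74 over the summed class II chains stayed between 0.788 and 1.10 in all 6 libraries (ratio of CPM). Without WT replicate 2 Cd74 still passed in both comparisons, at -0.82 and -0.77. It passed in neither comparison without a replicate of the transgenic group compared, where its adjusted p reached 0.190 in G2APOL1 and 0.149 in G0APOL1 (edgeR) at log2 fold changes within -1.99 to -0.77 over all fits that left out 1 library. Both Cd74 calls were also lost with limma-voom (adjusted p = 0.0751 in G2APOL1 and 0.0901 in G0APOL1) and with a replicate block (adjusted p = 0.218 and 0.238, edgeR).

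H2-DMa and H2-DMb1 encode the chains of H2-DM, which exchanges the invariant chain fragment for peptide. Of the exonic bases of H2-DMa, 10.4% are shared with Brd2 on the opposite strand, which the library kit does not tell apart. Brd2 had 4697 counts over the libraries, against 623 for H2-DMa. H2-DMa was at 12.9 and 23.1 CPM in WT, against 10.0 and 6.86 in G0APOL1 and 6.34 and 6.09 in G2APOL1, and all transgenic libraries lay below both WT libraries. It fell in G2APOL1 by 1.53 ± 0.42 on the log2 scale (adjusted p = 0.0409, edgeR), and its value in G0APOL1 was -1.09 ± 0.41 (adjusted p = 0.134). The G2APOL1 value without WT replicate 2 was -1.04 and did not pass, nor did it pass without either G2APOL1 replicate. Without WT replicate 1, H2-DMa and H2-DMb1 also passed in G0APOL1, at -1.44 and -1.56. H2-DMb1 was at 13.9 and 28.9 CPM in WT, against 12.9 and 6.50 in G0APOL1 and 16.0 and 10.9 in G2APOL1. Its G2APOL1 libraries overlapped WT, and its log2 fold changes of -0.66 ± 0.43 in G2APOL1 and -1.13 ± 0.44 in G0APOL1 did not pass. H2-DMb2, which is at least 95% identical to H2-DMb1 over more than 50% of its length, had 67 counts in all. H2-Oa and H2-Ob, the chains of H2-DO, which inhibits H2-DM, had 57 and 77 counts, and H2-Oa was not tested. H2-Ob was at 2.08 and 1.21 CPM in WT, against 0.320 and 3.08 in G0APOL1 and 0.943 and 0.534 in G2APOL1. Its G0APOL1 libraries overlapped WT, its G2APOL1 libraries lay below both WT libraries, and neither comparison passed.

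Several macrophage and other leukocyte markers moved with the class II genes. Of 13 macrophage markers tested, 5 fell and 0 rose in each comparison with WT, including Lyz2 at 49.8 and 53.8 CPM in WT, against 23.5 and 17.9 in G0APOL1 and 13.6 and 14.1 in G2APOL1. C1qa, C1qb, C1qc and Cd14 were the other 4. Csf1r, a defining macrophage receptor, was at 82.0 and 90.2 CPM in WT, against 78.2 and 83.1 in G0APOL1 and 76.1 and 73.9 in G2APOL1, and its log2 fold changes of -0.20 ± 0.18 and -0.09 ± 0.18 did not pass in G2APOL1 and G0APOL1. The summed macrophage markers were at 246 and 316 CPM in WT, against 156 and 169 in G0APOL1 and 142 and 156 in G2APOL1. Pan-leukocyte markers summed to 65.1 and 129 CPM in WT, against 47.8 and 48.1 in G0APOL1 and 56.8 and 53.2 in G2APOL1, and 0 of 6 passed in either comparison. In bulk tissue, fewer cells of a type and less RNA per cell cannot be told apart, and the part of these cells in the class II result was not tested.

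The summed class II chains divided by the summed pan-leukocyte markers gave 4.51 and 4.94 in WT, against 4.32 and 3.97 in G0APOL1 and 3.36 and 2.95 in G2APOL1. For this ratio the 3 groups did not overlap, and the WT replicates were much closer than in the class II chains themselves. The ratio was not tested, and its denominator was higher in G2APOL1 (56.8 and 53.2 CPM) than in G0APOL1 (47.8 and 48.1 CPM). Divided by the macrophage markers instead, the chains gave 1.19 and 2.02 in WT, against 1.32 and 1.13 in G0APOL1 and 1.35 and 1.01 in G2APOL1, and the groups overlapped. Dendritic markers summed to 17.7 and 38.3 CPM in WT and to 15.9 to 21.5 in the transgenic libraries, with Siglech at 0 in every library. Zbtb46, a transcription factor of conventional dendritic cells, was the only one of 7 tested to pass, at -1.99 ± 0.56 in G2APOL1 (adjusted p = 0.0467, edgeR), and 0 passed in G0APOL1. T and NK cell markers summed to 24.2 CPM in WT replicate 2 and to 3.90 to 7.15 CPM elsewhere, and 0 of 4 tested passed. B cell markers without Ighm and Igkc summed to 0.591 to 6.15 CPM, Pax5 was at 0, and 0 of 4 tested B cell markers passed. Igkc alone was at 401 and 552 CPM in WT, against 667 and 485 in G0APOL1 and 591 and 417 in G2APOL1. Its groups overlapped, with log2 fold changes of 0.08 ± 0.24 in G2APOL1 and 0.27 ± 0.24 in G0APOL1.

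**Figure D4:**
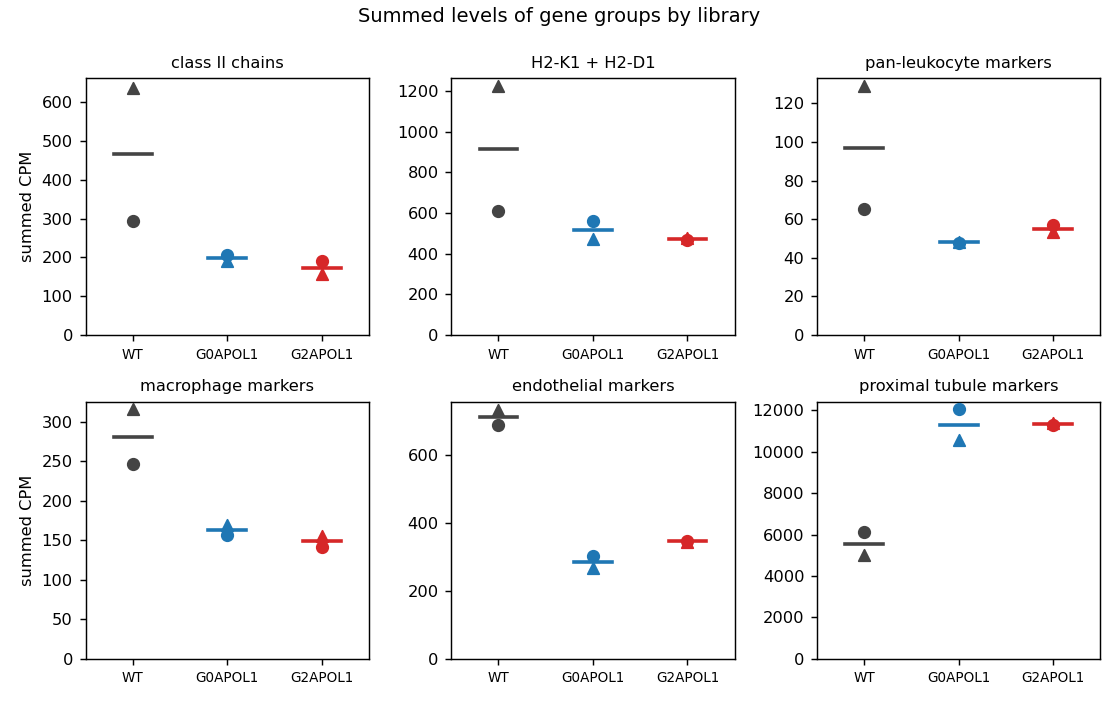
Summed CPM of gene groups in each library, with bars for the group mean, circles for replicate 1 and triangles for replicate 2. WT replicate 2 is the high point for class II chains (637), H2-K1 with H2-D1 (1224) and pan-leukocyte markers (129), while both WT libraries are alike in endothelial markers (690 and 734).

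Among class I heavy chains, the classical H2-K1 and H2-D1 were lower in every transgenic library than in either WT library and did not pass. H2-K1 was at 276 and 636 CPM in WT, against 247 and 232 in G0APOL1 and 209 and 215 in G2APOL1, with log2 fold changes of -1.10 ± 0.32 in G2APOL1 (adjusted p = 0.0624, edgeR) and -0.93 ± 0.32 in G0APOL1 (adjusted p = 0.110). H2-D1 was at 334 and 588 CPM in WT, against 315 and 240 in G0APOL1 and 258 and 264 in G2APOL1, with -0.82 ± 0.25 (adjusted p = 0.0638, edgeR) and -0.73 ± 0.25 (adjusted p = 0.0965). Most of the distance came from WT replicate 2, while WT replicate 1 lay close to the transgenic libraries. Leaving out WT replicate 2 gave values of -0.36 and -0.20 for H2-K1 and -0.34 and -0.27 for H2-D1 in G2APOL1 and G0APOL1. Without WT replicate 1 both genes passed in both comparisons, at -1.57 and -1.40 for H2-K1 and -1.16 and -1.08 for H2-D1. H2-D1 is at least 95% identical to H2-K1 over more than 50% of its length, so reads of either may have been counted to the other.

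The H2-Q genes encode non-classical class I chains. H2-Q6 was at 27.0 and 70.8 CPM in WT, against 22.9 and 10.6 in G0APOL1 and 14.1 and 13.2 in G2APOL1. It fell in G2APOL1 (-1.83 ± 0.47, adjusted p = 0.0439, edgeR), and the G0APOL1 value was -1.54 ± 0.47 (adjusted p = 0.0809). The G2APOL1 call was lost without WT replicate 2, at -0.96, and without either G2APOL1 replicate. It was also lost with limma-voom (adjusted p = 0.159), with a replicate block (adjusted p = 0.130, edgeR) and without mitochondrial genes (adjusted p = 0.0513, edgeR). H2-Q4 was at 26.9 and 92.2 CPM in WT and at 20.2 to 23.4 in the transgenic libraries, and H2-Q7 at 14.4 and 56.1 CPM in WT and at 10.3 to 15. Neither passed, with G2APOL1 log2 fold changes of -1.54 ± 0.49 and -1.57 ± 0.54. Without WT replicate 1 all 3 H2-Q genes passed in both comparisons, at -2.36 for H2-Q6, -2.16 for H2-Q4 and -2.23 for H2-Q7 in G2APOL1. These H2-Q genes had the widest distance between the WT replicates among class I genes with at least 500 counts over the 6 libraries, with ratios of WT replicate 2 to WT replicate 1 of 3.43 for H2-Q4, 2.62 for H2-Q6 and 3.90 for H2-Q7. H2-Q7 has a near-identical copy in the pseudogene H2-Q5, which had 36 counts. In WT replicate 2 the expected counts of H2-Q6 and H2-Q7 were fractional, at 643.66 and 511.34, so reads may have been divided between genes there.

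The well-counted class I genes of the T region, H2-T23 and H2-T22, differed little between the groups. H2-T23 encodes Qa-1, which presents leader peptides of other class I chains to NK and CD8+ T cells. Its level was 138 and 150 CPM in WT, against 160 and 140 in G0APOL1 and 146 and 116 in G2APOL1, and the groups overlapped. H2-T22, a ligand of some gamma-delta T cells, was at 147 and 119 CPM in WT, against 126 and 97.2 in G0APOL1 and 118 and 102 in G2APOL1. The log2 fold changes in G2APOL1 and G0APOL1 were -0.14 ± 0.19 and 0.06 ± 0.19 for H2-T23 and -0.27 ± 0.20 and -0.25 ± 0.20 for H2-T22, and 0 of these 4 values passed. WT replicate 2 over WT replicate 1 was 1.08 for H2-T23 and 0.811 for H2-T22, against 2.31 for H2-K1. Summed over all kept genes of the class Ib group, which holds the Q, T and M genes, the level was 361 and 504 CPM in WT, against 349 and 290 in G0APOL1 and 316 and 269 in G2APOL1. Of 9 class Ib genes tested, 1 fell in G2APOL1 (H2-Q6) and 0 in G0APOL1, and 0 rose.

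B2m, the light chain of every class I molecule, was at 231 and 428 CPM in WT, against 302 and 167 in G0APOL1 and 184 and 192 in G2APOL1. G0APOL1 overlapped WT, and the log2 fold changes of -0.81 ± 0.33 in G2APOL1 and -0.49 ± 0.33 in G0APOL1 did not pass. Per kilobase of exon, B2m was the most abundant of the 35 genes, at 291 CPM per kb over the 6 libraries. It was followed by Cd74 at 172, H2-D1 at 129 and H2-K1 at 103 CPM per kb. At the lower end stood Nlrc5 at 0.470, Ciita at 0.248 and H2-Eb2 at 0.0534 CPM per kb.

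Of the genes for peptide transport and loading, Tap1 and Tapbp fell in both transgenic groups. Tap1, a subunit of the transporter that brings peptides into the endoplasmic reticulum, was at 17 and 34.9 CPM in WT, against 8.97 and 9.93 in G0APOL1 and 7.46 and 12.1 in G2APOL1. It fell in G2APOL1 (-1.41 ± 0.40, adjusted p = 0.0474, edgeR) and in G0APOL1 (-1.46 ± 0.40, adjusted p = 0.0428). Neither value passed without WT replicate 2, at -0.78 and -0.84. Tapbp, or tapasin, which tethers class I to the transporter, was at 117 and 119 CPM in WT, against 82.7 and 59.6 in G0APOL1 and 70.6 and 74.2 in G2APOL1. In this gene WT replicate 2 did not stand apart. Tapbp fell in G2APOL1 (-0.71 ± 0.20, adjusted p = 0.0439, edgeR) and in G0APOL1 (-0.73 ± 0.20, adjusted p = 0.0383), and without WT replicate 2 the values were -0.68 and -0.72, which no longer passed. Without a replicate of the transgenic group compared, the Tap1 calls were lost, as were those of Tapbp except in G0APOL1 without its replicate 1. The Tap1 call in G2APOL1 was lost without either G0APOL1 replicate too, and the Tapbp call in G0APOL1 without either G2APOL1 replicate. Over all fits that left out 1 library, Tap1 ranged from -1.83 to -0.78 in G2APOL1 and from -1.88 to -0.84 in G0APOL1, and Tapbp from -0.73 to -0.64 and from -1.04 to -0.50.

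Tap2, the partner of Tap1, was at 23.4 and 37.4 CPM in WT, against 24.9 and 13.1 in G0APOL1 and 7.29 and 17.7 in G2APOL1. Its G0APOL1 libraries overlapped WT, and its log2 fold changes of -1.29 ± 0.45 in G2APOL1 and -0.67 ± 0.44 in G0APOL1 did not pass; in G2APOL1 it passed without G2APOL1 replicate 2, at -2.04. Of Tapbp, 29.0% of exonic bases are shared with other genes, and Tap2 shares 18.5% with genes on the opposite strand, which the library kit does not tell apart. Of 7 endoplasmic reticulum helpers of class I assembly tested, 0 fell in either comparison and 0 rose in G2APOL1, and Calr (0.89 ± 0.22) and Pdia3 (0.81 ± 0.20), a chaperone and a disulfide isomerase of the loading complex, rose in G0APOL1 on the log2 scale. The medians of these helpers were 0.45 in G2APOL1 and 0.56 in G0APOL1.

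The immunoproteasome subunits Psmb8, Psmb9 and Psmb10 replace the constitutive catalytic subunits Psmb5, Psmb6 and Psmb7 in immune cells and in cells stimulated by interferon. Psmb8 was at 16.9 and 44.7 CPM in WT, against 12.5 and 9.34 in G0APOL1 and 15 and 12.7 in G2APOL1. It fell in G0APOL1 (-1.49 ± 0.41, adjusted p = 0.0438, edgeR), and its G2APOL1 value was -1.15 ± 0.41 (adjusted p = 0.108). The G0APOL1 call was lost without WT replicate 2 (-0.62, with -0.27 in G2APOL1) and without either G0APOL1 replicate. Psmb9 was at 11.9 and 19.8 CPM in WT, against 5.66 and 8.40 in G0APOL1 and 8.74 and 4.38 in G2APOL1. Psmb10 was at 24.1 and 39.9 CPM in WT, against 16.2 and 16.2 in G0APOL1 and 19.3 and 17.8 in G2APOL1. For all 3 genes the 4 transgenic libraries lay below both WT libraries, and the values for Psmb9 (-1.26 ± 0.46 and -1.17 ± 0.46) and Psmb10 (-0.78 ± 0.30 and -0.98 ± 0.30) did not pass in G2APOL1 and G0APOL1. Psmb8 and Psmb10 passed in both comparisons without WT replicate 1, at -1.68 and -1.09 in G2APOL1. Psmb9 and Tap1 are divergent neighbours whose RefSeq starts lie 226 bases apart, and 5.8% of the exonic bases of Psmb9 are shared with Tap1 on the opposite strand.

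Of 20 constitutive proteasome genes tested, 0 fell in either comparison, a count near the background of 3.62% and 3.68% of all genes. Their medians were 0.11 in G2APOL1 and 0.06 in G0APOL1 on the log2 scale. Psme4, the activator PA200, rose in both (0.94 ± 0.22 and 1.03 ± 0.22), and Psmd1, a subunit of the regulatory particle, rose in G0APOL1 (0.74 ± 0.20). Psmb8 over Psmb5, as a ratio of CPM per kilobase, was 0.0292 and 0.102 in WT, against 0.0207 and 0.0193 in G0APOL1 and 0.0220 and 0.0230 in G2APOL1. Psmb10 over Psmb7 was 0.337 and 0.816 in WT, against 0.231 and 0.270 in G0APOL1 and 0.294 and 0.283 in G2APOL1. Psmb9 over Psmb6 was 0.0280 and 0.0514 in WT, against 0.0183 and 0.0304 in G0APOL1 and 0.0235 and 0.0156 in G2APOL1. The transgenic libraries lay below both WT libraries for Psmb8 and Psmb10, with WT replicate 1 the nearer, and G0APOL1 overlapped WT for Psmb9.

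**Figure D5:**
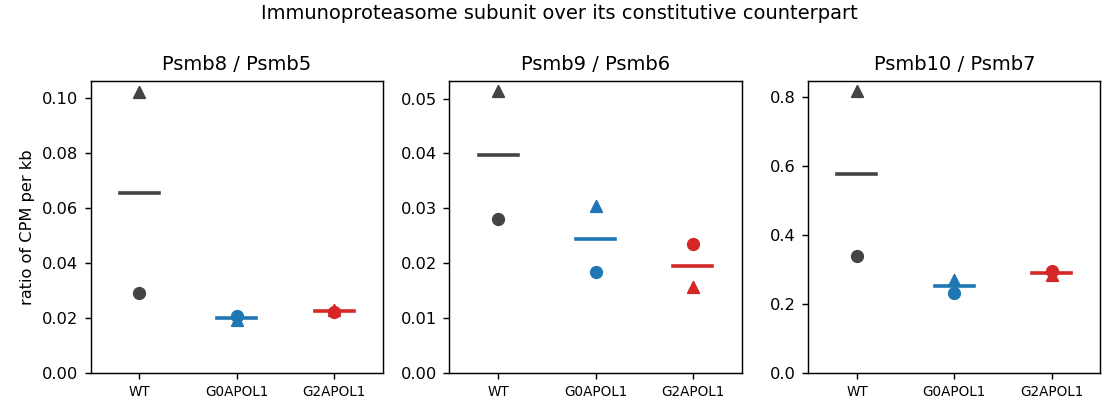
Ratio of each immunoproteasome subunit to its constitutive counterpart (CPM per kb over CPM per kb) in each library; bars are group means, circles replicate 1 and triangles replicate 2. WT replicate 2 is the high point in all 3 panels, at 0.102, 0.0514 and 0.816.

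Psme1 and Psme2, the alpha and beta subunits of the PA28 activator that opens the proteasome and is induced by interferon-gamma, fell in both groups. Psme1 was at 99 and 132 CPM in WT, against 77.5 and 61.0 in G0APOL1 and 70.0 and 63.8 in G2APOL1. Psme2 was at 89.2 and 82.7 CPM in WT, against 55.9 and 46.6 in G0APOL1 and 45.2 and 53.0 in G2APOL1. Psme2 is a member whose WT replicates were close and did not overlap any transgenic library. Psme1 changed by -0.79 ± 0.21 in G2APOL1 (adjusted p = 0.0338, edgeR) and by -0.74 ± 0.21 in G0APOL1 (adjusted p = 0.0447). Psme2 changed by -0.81 ± 0.20 in G2APOL1 (adjusted p = 0.0248, edgeR) and by -0.75 ± 0.20 in G0APOL1 (adjusted p = 0.0349). Without WT replicate 2 Psme2 still passed, at -0.85 and -0.79, and Psme1 did not, at -0.55 and -0.51. Every one of these 4 calls was lost without either replicate of the transgenic group compared, the 2 in G0APOL1 also without either G2APOL1 replicate, and that of Psme2 in G0APOL1 without WT replicate 1, at -0.68. Over fits that left out 1 library, Psme2 ranged from -0.91 to -0.67 in G2APOL1 and from -0.93 to -0.60 in G0APOL1. Psme2 is 99.4% identical to the retrocopy Psme2b, which had 112 counts.

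The transactivators were counted at low levels. Nlrc5 was at 1.98 and 8.24 CPM in WT, against 1.28 and 7.10 in G0APOL1 and 1.37 and 3.95 in G2APOL1. Ciita was at 0.595 and 3.85 CPM in WT, against 2.99 and 0.473 in G0APOL1 and 3.0 and 3.31 in G2APOL1. For both genes each transgenic group overlapped WT, and replicates of WT and G0APOL1 differed several-fold. Both G2APOL1 libraries lay above both G0APOL1 libraries for Ciita, by a narrow margin, and the groups overlapped for Nlrc5. The log2 fold changes against WT in G2APOL1 and G0APOL1 were -0.94 ± 0.91 and -0.29 ± 0.90 for Nlrc5 and 0.51 ± 1.09 and -0.34 ± 1.11 for Ciita. At these low counts, a difference in either gene could not be told apart from the spread between libraries. Of 7 subunits of the complex that Ciita and Nlrc5 bind at X and Y boxes, Rfx5 fell in G2APOL1 (-1.81 ± 0.44, adjusted p = 0.0226, edgeR), at 12.6 and 21.1 CPM in WT and 4.54 and 5.02 in G2APOL1. In G0APOL1 Rfx5 was at 9.18 and 17 CPM and did not pass (-0.36 ± 0.42), and 0 of the 7 passed there.

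In the interferon-gamma pathway, which induces most of these genes, 0 of 9 tested genes passed in either comparison, against 8.19% of all genes in G2APOL1 and 8.17% in G0APOL1, so a count of 0 among 9 is near the background. The same holds for the counts of 0 given for the other short lists. Ifng itself was at 0 counts in every library. Irf1, an interferon-induced activator of class I genes, was at 13.0 and 23.2 CPM in WT, against 13.2 and 7.21 in G0APOL1 and 6.77 and 10.7 in G2APOL1. Irf1 was highest in WT replicate 2, and its G2APOL1 log2 fold change of -1.05 ± 0.44 did not pass.

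Of 7 tested enzymes that prepare peptides for class II, 0 fell in either comparison. Ctsl (1.72 ± 0.18), Lgmn (0.84 ± 0.21) and Ctsh (0.78 ± 0.20) rose in G2APOL1, and Ctsl (1.09 ± 0.18) and Lgmn (0.89 ± 0.21) rose in G0APOL1. These are lysosomal proteases that kidney tubule cells also make. Ctss, which trims the invariant chain in dendritic cells and B cells, was at 8.43 and 20.8 CPM in WT, against 7.69 and 1.06 in G0APOL1 and 7.72 and 5.77 in G2APOL1 and did not pass. Proximal tubule markers rose alongside, with 8 of 10 higher and 0 lower in each comparison and summed levels of 6136 and 5000 CPM in WT against 10550 to 12046 in the transgenic libraries. Their part in the protease result was not tested.

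Of 7 tested MHC class I-like genes without an H2- symbol, 1 rose and 1 fell in both comparisons. Azgp1, a soluble class I-like protein, was at 0.892 and 0 CPM in WT, against 112 and 142 in G0APOL1 and 137 and 123 in G2APOL1. Mr1, which presents microbial metabolites to MAIT cells, was at 16.0 and 16.5 CPM in WT, against 3.74 and 3.19 in G0APOL1 and 6.17 and 5.88 in G2APOL1. Mr1 changed by -1.43 ± 0.41 in G2APOL1 (adjusted p = 0.0471, edgeR) and by -2.22 ± 0.42 in G0APOL1 (adjusted p = 0.00629), with close replicates in every group. Of 6 costimulation and checkpoint ligands tested, 0 passed in G2APOL1 and Icam1, an adhesion molecule, fell in G0APOL1 (-1.06 ± 0.28, adjusted p = 0.0345, edgeR).

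Most endothelial markers were lower in both transgenic groups as well. Of 10 tested, 7 fell and 0 rose in each comparison with WT, against 3.62% of all genes lower in G2APOL1 and 3.68% in G0APOL1. Kdr, Tek and Cldn5 passed in neither comparison. In G2APOL1, Kdr (0.11 ± 0.28) and Cldn5 (-0.05 ± 0.43) lay near 0 on the log2 scale, and in G0APOL1 they were at -0.26 ± 0.28 and -1.16 ± 0.44. The sum of the 10 markers was at 690 and 734 CPM in WT, against 303 and 269 in G0APOL1 and 348 and 345 in G2APOL1. Unlike H2-K1 or the class II chains, these sums were close between the WT replicates. Urothelial markers summed to 116 and 93.1 CPM in WT and to 10.2 to 22.9 in the transgenic libraries, with 3 of 6 lower in G2APOL1 and 4 of 6 in G0APOL1. Of 8 kidney markers outside the proximal tubule, 1 rose (Calb1) and 1 fell (Aqp2) in each comparison. The part of these cell types in the class I, Tapbp and PA28 results was not tested.

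Several members were close to the limit of counting. H2-M2 had 31 counts, all of them in WT replicate 2, and H2-M10.5 had 3 counts in WT replicate 1 and 7 in G0APOL1 replicate 2. H2-T24 was at 2.18 and 7.47 CPM in WT and at 1.37 to 2.67 in the transgenic libraries, H2-M3 was at 0 to 2.48 CPM in all libraries and H2-Q2 at 0.0992 to 3.19 CPM, and 0 of these 3 passed in any comparison. H2-Ke6, which lies in the MHC region and encodes a hydroxysteroid dehydrogenase with no part in antigen presentation, was at 115 and 75.7 CPM in WT, against 88.9 and 97.2 in G0APOL1 and 95 and 78.0 in G2APOL1. Its groups overlapped, its log2 fold changes were -0.14 ± 0.22 and -0.04 ± 0.22, and 86.4% of its exonic bases are shared with the read-through gene Gm20427.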

How the data were processed

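The authors deposited expected counts per gene for 6 libraries, unscaled. Per the labels' protocols, RNA came from 10 mg of frozen kidney (Qiagen RNeasy, RNA integrity number of at least 6) and the library kit was NEBNext Ultra RNA; all carry batch 1. The submitters' processing notes list mm10 and Cell Ranger ARC 2.0.2 without a role; aligner and counter: not given in the sources used here. Identifiers were matched to GENCODE M21 (54079 of 54146 without version, 67 unmatched).

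Counts were rounded and scaled with TMM, and filterByExpr (edgeR, by group) kept 14386 genes. All 6 libraries entered a single fit (edgeR 4.0.16, R 4.3.3, glmQLFit with robust estimation, 3 residual degrees of freedom, common biological coefficient of variation 0.315), tested two-sided with Benjamini-Hochberg adjustment over all genes. The standard error is the log2 fold change divided by the square root of F. A fit that leaves out 1 library leaves its group with 1, which is assumed to vary like the others. The members and lists were chosen with earlier results of these data known. Described with values were all members that passed and a set of central genes, and up to 4 genes per list; H2-T22, H2-T23, H2-Q4, H2-Q7, H2-DMb1 and Csf1r were added after their values were seen. Near-identical copies were found with minimap2 2.31 at 95% identity over 50% of the length. The promoter motifs, and the length of the kappa B motif, were chosen after the data were seen; a longer form of that motif, searched first, matched fewer members. 1 gene that the rule for named genes would describe is not reported here. The procedure was tested on simulated data. DESeq2 1.42.0, limma-voom (limma 3.58.1), other filters and scaling, and leaving out each library were alternatives. Total counts limit precision for genes below a few CPM.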

Additional observations from a re-analysis of the deposited data

How the results depend on the processing

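The members called lower in G2APOL1 against WT numbered 10, and between 1 and 16 when 1 library was left out, 17 with no low-count filter and 6 with a replicate block. In G0APOL1 against WT they numbered 8, and between 0 and 16 when 1 library was left out, 16 with no low-count filter, 13 with DESeq2, 4 with limma-voom and 0 when the 4 libraries compared were fitted alone. Called members were lower in each of these settings. In G2APOL1 against G0APOL1 they numbered 0 in each setting. Replicate numbers did not pair the libraries (correlations of replicate deviations 0.0956, 0.0578 and 0.0426), and with the replicate block 6 members were called in each comparison with WT. The same block raised the calls over all genes from 1178 to 1724 in G2APOL1 against WT and from 1175 to 1618 in G0APOL1 against WT. Over all genes, 1178 calls in G2APOL1 against WT became 1806 with no filter and 338 to 1835 when 1 library was left out; 1175 in G0APOL1 against WT became 658 with 4 libraries and 599 to 1721 when 1 was left out; and 69 in G2APOL1 against G0APOL1 became 245 with no filter, 146 with DESeq2, 119 with 4 libraries, 120 with the replicate block and 27 to 150 when 1 was left out. Among 25 members, log2 fold changes changed sign when a library was left out for H2-T23 (-0.29 to 0.040 in G2APOL1, -0.10 to 0.17 in G0APOL1), H2-Ke6 (-0.40 to 0.20 and -0.31 to 0.30), Ciita (-0.28 to 2.40 and -2.25 to 1.54), Nlrc5 (-1.87 to 0.43 and -1.97 to 1.07) and, in G0APOL1, B2m (-1.04 to 0.030); 0 of these were called. Over 25 members and all settings, 36 of the G2APOL1 values and 43 of the G0APOL1 values lost their call and 18 and 24 gained one. Fold changes under the alternatives are not given for G2APOL1 against G0APOL1 or for the low-count members H2-M3, H2-DMb2, H2-Ob, H2-T24, H2-Q10 and H2-Q2. Summing near-identical copies left the counts of called members at 10 and 8. The causes were not tested, beyond the smaller number of libraries where 1 is left out. With 2 libraries per group, tested members at a few CPM or less had large standard errors against WT. On the log2 scale they ran from 0.82 for H2-T24 in G0APOL1 to 1.85 for H2-DMb2 in G2APOL1.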
